A study of Homo sapiens with 24 samples.

Results

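The genes described here are 40 subunits and cofactors of the machines that cut the 3′ ends of RNA in the cell nucleus, chosen by name from the 61248 features of each count table. They comprise 14 Integrator subunits, 3 members of the SOSS complex (NABP1, NABP2 and INIP), 17 cleavage and polyadenylation factors, and 6 factors for the 3′ ends of histone mRNA. RNA came from the human embryonic stem cell line H7. The groups are day 14 neural progenitors of BRAT1 knockout lines, day 14 neural progenitors of control lines, day 0 stem cells of BRAT1 knockout lines, and day 0 stem cells of control lines. Each genotype has 2 lines, each line was sampled at both days with 3 biological replicates lettered A to C, and so each group holds 6 libraries, 24 in all. No treatment other than the ventral differentiation is labelled. Knockout lines and control lines were all derived from H7, and whether a line is a single clone is not given in the sources used here.

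Integrator is a complex that binds RNA polymerase II near the start of genes and cuts the nascent transcript, and it also makes the 3′ ends of small nuclear RNAs. The cleavage and polyadenylation machinery cuts most pre-mRNAs downstream of a polyadenylation signal and adds the poly(A) tail. Histone mRNAs of the replication-dependent kind are cut without a tail by a related machine guided by the U7 small nuclear RNA. BRAT1 binds the Integrator endonuclease module of INTS9 and INTS11, and the series title names Integrator and CPSF function as its subject.

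The start regions of 3 members with differences described below are shown first, to place the measurements in the genome. Counts under the CPSF2 name were higher in knockout neural progenitors. Counts under the FIP1L1 name were lower at day 14 than at day 0 in both genotypes, and those under CPSF6 were higher. Each is the 250 bases before the gene's start, from RefSeq on GRCh38.p14, plus strand, 5′ to 3′, with CCAAT and GGGCGG or their reverse complements ATTGG and CCGCCC in capitals. CPSF2 lies at chr14:92121719-92121968, FIP1L1 at chr4:53377391-53377640 and CPSF6 at chr12:69239319-69239568.
CPSF2: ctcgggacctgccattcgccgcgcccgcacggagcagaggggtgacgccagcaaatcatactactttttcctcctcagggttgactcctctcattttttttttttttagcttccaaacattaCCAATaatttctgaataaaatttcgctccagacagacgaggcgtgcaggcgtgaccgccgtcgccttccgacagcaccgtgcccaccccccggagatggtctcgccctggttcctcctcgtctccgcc
FIP1L1: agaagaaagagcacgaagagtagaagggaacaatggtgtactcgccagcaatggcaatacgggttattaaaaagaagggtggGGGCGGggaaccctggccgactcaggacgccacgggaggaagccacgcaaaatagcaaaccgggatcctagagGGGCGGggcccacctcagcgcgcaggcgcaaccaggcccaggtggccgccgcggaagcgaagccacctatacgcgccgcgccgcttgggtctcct
CPSF6: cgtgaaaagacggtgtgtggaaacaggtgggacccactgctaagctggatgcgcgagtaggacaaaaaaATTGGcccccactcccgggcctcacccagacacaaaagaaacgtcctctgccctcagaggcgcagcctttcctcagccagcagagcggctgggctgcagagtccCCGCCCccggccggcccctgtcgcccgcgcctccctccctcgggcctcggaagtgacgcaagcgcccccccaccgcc
The CPSF2 region holds 1 CCAAT, the FIP1L1 region 2 matches to GGGCGG, and the CPSF6 region 1 match to each, both on the other strand. Of the 34 members with a RefSeq start region, 18 held CCAAT on either strand (52.9%), against 33.0% of 27305 start regions. GGGCGG was in 24 of them (70.6%), against 42.3% of all. The start of CPSF2 lies 20 bp from that of NDUFB1, a subunit of respiratory complex I on the other strand. None of the 3 regions was tied to a level by any test.

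The counts need a word on strand before any level is read. Across 2280 pairs of an antisense feature and the coding gene it overlaps, the antisense name held more counts in 1601 (70.2%). The nuclear RNA MALAT1 held 0.00444% of counts under its own name, and its antisense TALAM1 held 6.91%. Counts under a gene's name therefore mostly follow the strand opposite to it, so each member was read under its own name and also through the features whose exons overlap its exons on the other strand by at least 100 bp. Of the 40 members, 13 have such an opposite feature, 21 features in all. In these 21 pairs the opposite feature held more counts in 13 and the member in 8. Whether counts under a member's own name come from its own transcripts, from the opposite gene or from reads on the minority strand cannot be told apart in these tables. In bulk samples, fewer cells of a type and less RNA per cell also cannot be told apart.

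Library totals were 2688218 to 3726227 counts in day 14 knockouts and 2228736 to 3682807 in day 14 controls. At day 0 they were 1425141 to 2143871 in knockouts and 1407832 to 2059467 in controls. Values are CPM, a count scaled to a fixed library total. Libraries varied more at day 0: the common coefficient of variation was 0.383 in the day 14 fit and 0.736 in the day 0 fit. The summed level of 13 neural progenitor markers was 620 to 1231 CPM in day 14 knockouts against 285 to 502 CPM in day 14 controls, and the 6 neuron markers summed to 87.1 to 226 CPM against 28.7 to 74.2 CPM. None of these markers was at 0 at day 14. The 5 neural crest markers summed to 50.2 to 112 CPM in knockouts against 91.5 to 147 CPM in controls, but did not move as one. Of 4 tested, TFAP2B and SOX10 were lower in knockouts (log2 fold changes -4.44 and -2.85), NGFR was higher (1.002) and TFAP2A did not pass (0.23). The 10 pluripotency markers summed to 78.1 to 167 CPM in knockouts and 65.1 to 129 CPM in controls at day 14, with TDGF1 at 0 in controls. At day 0 they summed to 43.5 to 273 CPM in knockouts and 109 to 227 CPM in controls, with none at 0. These sums hide opposite moves between days: of 8 tested, 4 were lower and 2 higher at day 14 in each genotype. That is 75%, against 46.3% of all features in knockouts and 42.8% in controls. In knockouts L1TD1, TDGF1, POU5F1 and DNMT3B had log2 fold changes of -8.47, -4.93, -3.53 and -2.28, and LIN28A and LIN28B 1.63 and 2.35. The mesoderm and endoderm list (7 names, SOX17 at 0) reached 30.9 CPM and the mesenchyme list (5 names) 29.1 CPM at day 14. The part of these differences in the results on the 40 genes was not tested.

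BRAT1, the deleted gene, was checked first. At day 14 it had 7.66, 44.1 and 86.8 CPM (lowest, median, highest) in knockouts and 186, 257 and 317 CPM in controls. The groups did not overlap, with a log2 fold change of -2.47 (SE 0.57) and a Benjamini-Hochberg adjusted p of 0.0111 in edgeR's quasi-likelihood test. The call was lost without control line 1 (edgeR adjusted p = 0.0914), without control line 2 (0.0834) and with counts summed per line (0.354), and the value was -1.72 without KO line 1 and -4.405 without KO line 2. Its level differed between the knockout lines, with means of 80.4 CPM in line 2 and 11.9 CPM in line 1 (log2 fold change 2.72, edgeR adjusted p = 4.67e-05). At day 0 BRAT1 had at most 6.32 CPM in knockouts and 2.91 CPM in controls, with 18 and 8 counts over 6 libraries. Control libraries at day 14 held 4898, so the count under this name was near 0 at day 0 in both genotypes. The day 0 tables thus do not show its loss. BRAT1, too, was read under its own name, and such counts mostly follow the opposite strand. Its partners are mentioned only for context: INTS11 averaged 143 ± 28.2 CPM in day 14 knockouts and 106 ± 10.1 CPM in controls, and WDR73 80.3 ± 12.2 and 66.5 ± 8.08 CPM (SD, n = 6 each).

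Most of the 40 gene names held few counts. WDR33, the subunit that reads the AAUAAA signal, stood apart, with 316, 404 and 528 CPM in day 14 knockouts and 368, 432 and 506 CPM in day 14 controls (lowest, median, highest). At day 0 it had 126, 194 and 274 CPM in knockouts and 143, 248 and 289 CPM in controls. All 40 names together summed to 727 to 1011 CPM in day 14 knockouts and 729 to 918 CPM in day 14 controls. They summed to 341 to 546 CPM in day 0 knockouts and 353 to 643 CPM in day 0 controls. Per kilobase of annotated exons, WDR33 averaged 28.1 CPM in day 14 knockouts and 30.2 CPM in day 14 controls. INTS12, a PHD finger subunit of Integrator, came next with 11.1 and 10.1 CPM per kilobase, and these 2 genes led the order in both groups.

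**Figure D1:**
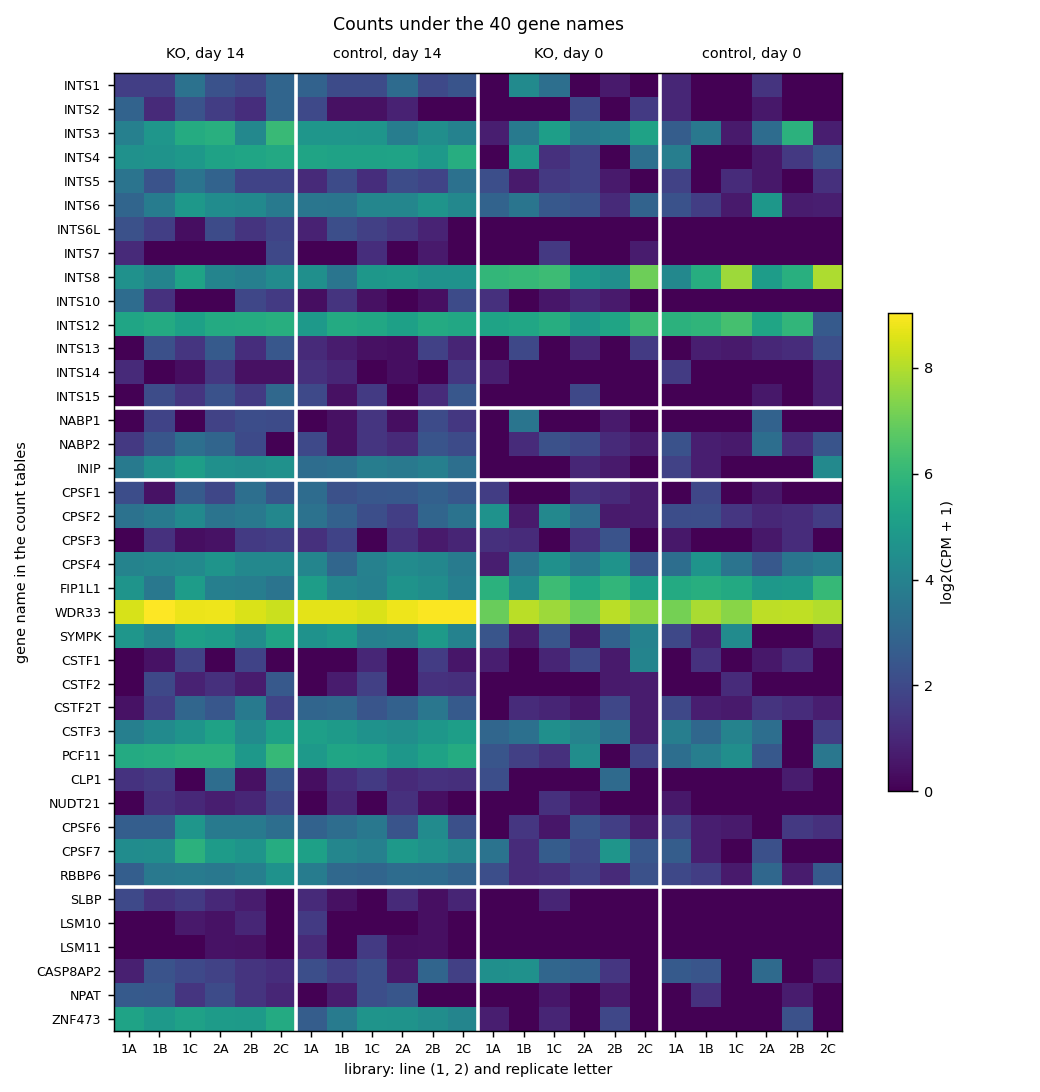
CPM under each of the 40 gene names (rows, in 4 role groups parted by white lines) in 24 libraries (columns: line and replicate letter, 4 groups, day 14 left of day 0), on a log2(CPM + 1) scale. WDR33 is the brightest row in nearly every library, and most day 0 cells are near 0.

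A filter on low counts left 21 of the 40 members testable at day 14 and 7 at day 0. By role, 7 of 14 Integrator subunits, 1 of 3 SOSS members, 12 of 17 cleavage and polyadenylation factors and 1 of 6 histone factors passed at day 14. The 19 others had mean levels of 0.335 to 3.18 CPM at day 14 and 14 to 235 counts over all 24 libraries. All 7 members that passed at day 0 (INTS3, INTS8, INTS12, CPSF4, FIP1L1, WDR33 and CSTF3) have an opposite feature. None of the 27 members without an opposite feature passed at day 0, and 10 of them passed at day 14. Over all features, 4832 of 61248 passed at day 0. The share of all features with an opposite feature that passed is not given here, and the part of the opposite strand in passing was not tested. INTS6L, LSM10 and LSM11 had 0 counts at day 0 in both genotypes. A count of 0 over 6 libraries allows up to 0.278 CPM in knockouts and 0.294 CPM in controls, a limit that covers counting error only. INTS7, INTS10 and SLBP were at 0 in day 0 controls but not in day 0 knockouts.

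The main comparison asks whether BRAT1 loss changed these genes in neural progenitors. At day 14, 3 of the 21 tested members were higher in knockouts and 0 were lower: INIP, ZNF473 and CPSF2. That is 14.3% of members tested, against 21.7% of the 11408 features tested. Features higher in knockouts made up 11.0% of those tested and features lower 10.7%. At an unadjusted p under 0.05 there were 5 members, and 12 of the 21 had a positive log2 fold change. The median log2 fold change was 0.32 for members and 0.07 for all features. The share of members called was thus not above that of all features.

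Among the 7 tested Integrator subunits, none passed the threshold. INTS3, a subunit that Integrator shares with the SOSS complex, came nearest. It had 14.5, 36.2 and 69.0 CPM in knockouts and 13.4, 23.2 and 26.1 CPM in controls at day 14. The groups overlapped, and the log2 fold change of 0.77 (SE 0.29) had an edgeR adjusted p of 0.0615. It was 0.15 with the minority-strand percent, defined below, as a covariate, 0.35 without the 2 knockout libraries highest in it, 0.405 without control line 2 and 0.40 without KO line 2. It passed the threshold without KO line 1 (1.004, edgeR adjusted p = 0.0234), without KO line 1 replicate A (0.89, edgeR adjusted p = 0.0225) and without KO line 2 replicate B (0.88, edgeR adjusted p = 0.0332). INTS8, which tethers the phosphatase PP2A to Integrator, had 13.8, 17.7 and 36.8 CPM in knockouts and 10.4, 23.4 and 28.4 CPM in controls (log2 fold change -0.13, SE 0.28). INTS4, the scaffold of the INTS9 and INTS11 cleavage module, had 23.1, 31.7 and 43.2 CPM in knockouts and 27.7, 36.4 and 48.5 CPM in controls. INTS12 had 34.1, 45.2 and 50.2 CPM in knockouts and 28.2, 41.9 and 45.3 CPM in controls. The knockout and control ranges overlapped for each of these 4. INTS1, INTS5 and INTS6 had log2 fold changes of -0.06, 0.78 and -0.01, with SEs of 0.51, 0.57 and 0.31. INTS6 has a close paralog, INTS6L, so reads shared between them may have been split in counting.

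INIP, the small subunit of the SOSS complex that binds single-stranded DNA, was higher in knockouts under its own name. It had 11.9, 22.1 and 32.5 CPM in day 14 knockouts and 8.42, 10.4 and 14.1 CPM in day 14 controls. The lowest knockout library lay inside the control range and the other 5 lay above it. This is a log2 fold change of 0.98 (SE 0.27, edgeR adjusted p = 0.0104). INIP has no opposite feature and no coding gene starting within 5000 bp on the other strand, and it spans chromosome 9 from 112683926 to 112718236 on the minus strand of GRCh38. The DNA-binding subunits NABP1 and NABP2 were too low to test: NABP1 had at most 3.45 CPM in knockouts and 3.24 CPM in controls, and NABP2 at most 8.86 CPM and 4.12 CPM. The INIP call was lost in 7 of 24 alternative settings, among them without control line 1 (log2 fold change 0.84, edgeR adjusted p = 0.14) and without control line 2 (0.9975, edgeR adjusted p = 0.0851).

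ZNF473, a zinc finger protein that binds the U7 snRNP, was also higher under its own name. It had 28.4, 32.8 and 45.5 CPM in day 14 knockouts and 5.43, 18.4 and 24.9 CPM in day 14 controls, and the groups did not overlap. This is a log2 fold change of 0.98 (SE 0.28, edgeR adjusted p = 0.0121). Leaving out control line 1 gave 0.69 (edgeR adjusted p = 0.138), and leaving out KO line 1 (0.94, 0.0548) or KO line 2 (0.96, 0.0541) also ended the call. Its gene on chromosome 19 (50025714 to 50053414, plus strand) overlaps 2 features on the other strand, described below. The other 5 histone factors were untested at day 14. They include SLBP, which binds the histone stem-loop and had at most 2.98 CPM in knockouts and 1.09 CPM in controls, and LSM10 and LSM11, core proteins of the U7 particle, at most 1.94 CPM in any day 14 library. NPAT, a coactivator of histone genes, had 0.954, 2.38 and 4.84 CPM in knockouts and 0, 0.315 and 4.37 CPM in controls. CASP8AP2, the histone processing factor also called FLASH, had 0.744, 2.01 and 4.01 CPM in knockouts and 0.546, 2.89 and 6.77 CPM in controls.

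Of the 12 tested cleavage and polyadenylation factors, CPSF2 passed the threshold. CPSF2 is the inactive partner of the endonuclease CPSF3. It had 9.67, 12.0 and 18.5 CPM in day 14 knockouts and 2.18, 6.38 and 9.87 CPM in day 14 controls, so that the groups just overlapped. This is a log2 fold change of 1.05 (SE 0.38, edgeR adjusted p = 0.0446). This call was lost in 18 of 24 alternative settings, including when any 1 of the 4 lines was left out (edgeR adjusted p between 0.115 and 0.202). CPSF3 itself was untested, with at most 2.23 CPM in knockouts and 2.52 CPM in controls.

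The other subunits that recognise the polyadenylation signal did not pass. WDR33 had a log2 fold change of -0.12 (SE 0.13), the smallest SE among the members. FIP1L1, which links the signal to the poly(A) polymerase, had 10.2, 13.6 and 31.1 CPM in knockouts and 13.9, 18.5 and 31.8 CPM in controls (log2 fold change -0.23, SE 0.30). CPSF4 and CPSF1 had log2 fold changes of 0.32 and -0.36 (SE 0.28 and 0.53). SYMPK, the scaffold of the cleavage module, had 0.37 (SE 0.25).

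In the cleavage factor that binds UGUA upstream of the cut, CPSF7 and CPSF6 passed the filter and NUDT21 did not. CPSF7 had 20.1, 27.4 and 55.8 CPM in knockouts and 14.2, 19.98 and 34.5 CPM in controls (log2 fold change 0.53, SE 0.27, edgeR adjusted p = 0.166). CPSF6 had 5.47, 10.2 and 25.8 CPM in knockouts and 3.59, 7.37 and 19.7 CPM in controls (log2 fold change 0.35, SE 0.42). PCF11, which couples cleavage to termination by RNA polymerase II, had 27.6, 50.01 and 66.1 CPM in knockouts and 26.7, 36.4 and 46.7 CPM in controls. This gave 0.43 on the log2 scale (SE 0.20, edgeR adjusted p = 0.135). Knockout and control ranges overlapped for all 3. CSTF3 and CSTF2T, subunits of the factor that binds downstream of the cut, had -0.21 and -0.46 (SE 0.24 and 0.53). CSTF2T is a close paralog of CSTF2, and shared reads may have been split between them. RBBP6, chosen after its values were seen, had 0.64 (SE 0.34, edgeR adjusted p = 0.196).

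**Figure D2:**
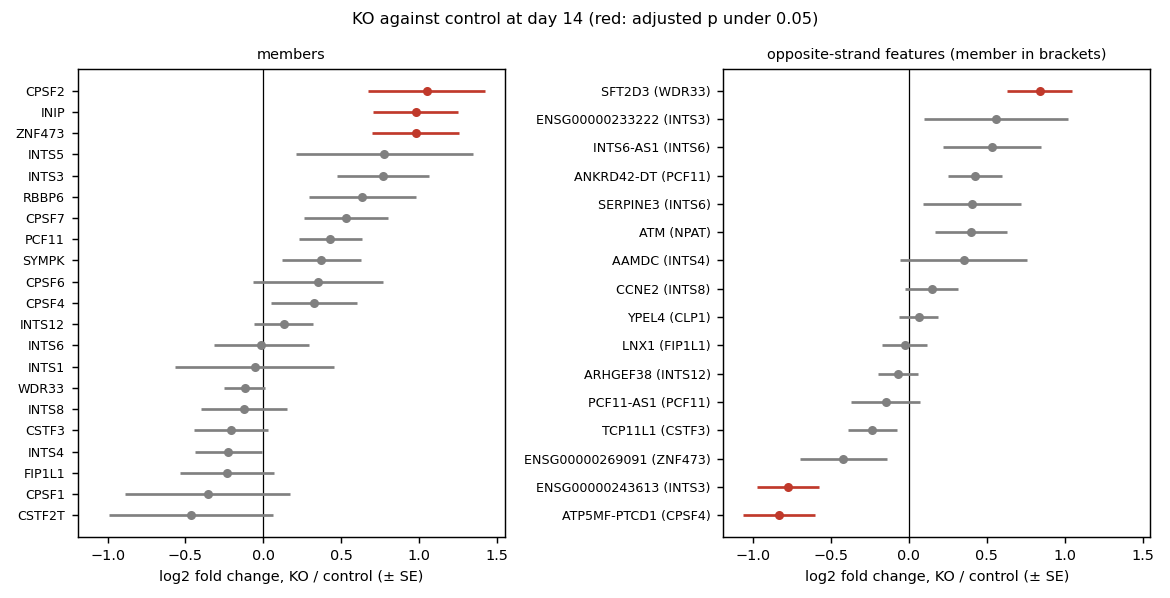
Log2 fold change of day 14 knockouts over day 14 controls (x axis, bars ± SE) for the 21 tested members (left panel) and the 16 tested opposite features (right panel, member in brackets), from edgeR. Red points passed an adjusted p of 0.05: 3 members, all positive, and 3 opposite features, 1 positive and 2 negative.

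Read through the opposite strand, 3 of the 16 tested features opposite a member passed the threshold at day 14, against 21.7% of all features: 1 higher and 2 lower in knockouts. SFT2D3, a membrane traffic protein whose whole annotated length of 3735 bp lies opposite exons of WDR33, was higher. It had 62.6, 103 and 158 CPM in day 14 knockouts and 46.2, 54.5 and 96.0 CPM in day 14 controls, with overlap through 1 control library. This is a log2 fold change of 0.84 (SE 0.21, edgeR adjusted p = 0.00508). Leaving out control line 1 gave 0.55 (edgeR adjusted p = 0.188) and leaving out KO line 1 gave 0.41 (edgeR adjusted p = 0.228).

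ENSG00000243613 is an antisense RNA whose exons overlap those of INTS3 by 129 bp. It had 22.3, 25.2 and 31.1 CPM in day 14 knockouts and 35.0, 42.8 and 53.2 CPM in day 14 controls, and the groups did not overlap. This is a log2 fold change of -0.78 (SE 0.20, edgeR adjusted p = 0.00521). Without control line 2 it was -0.79, with an edgeR adjusted p of 0.0549. ATP5MF-PTCD1, a read-through transcript that overlaps CPSF4 exons by 157 bp, had 17.7, 20.6 and 33.6 CPM in knockouts and 28.1, 41.3 and 51.6 CPM in controls. This gave -0.84 on the log2 scale (SE 0.23, edgeR adjusted p = 0.00947). Leaving out control line 1 (-0.81, edgeR adjusted p = 0.0917) or KO line 1 (-0.67, edgeR adjusted p = 0.0774) ended that call. ATP5MF-PTCD1 shares exons with ATP5MF and PTCD1, so its counts are uncertain where reads could be split among them.

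**Figure D3:**
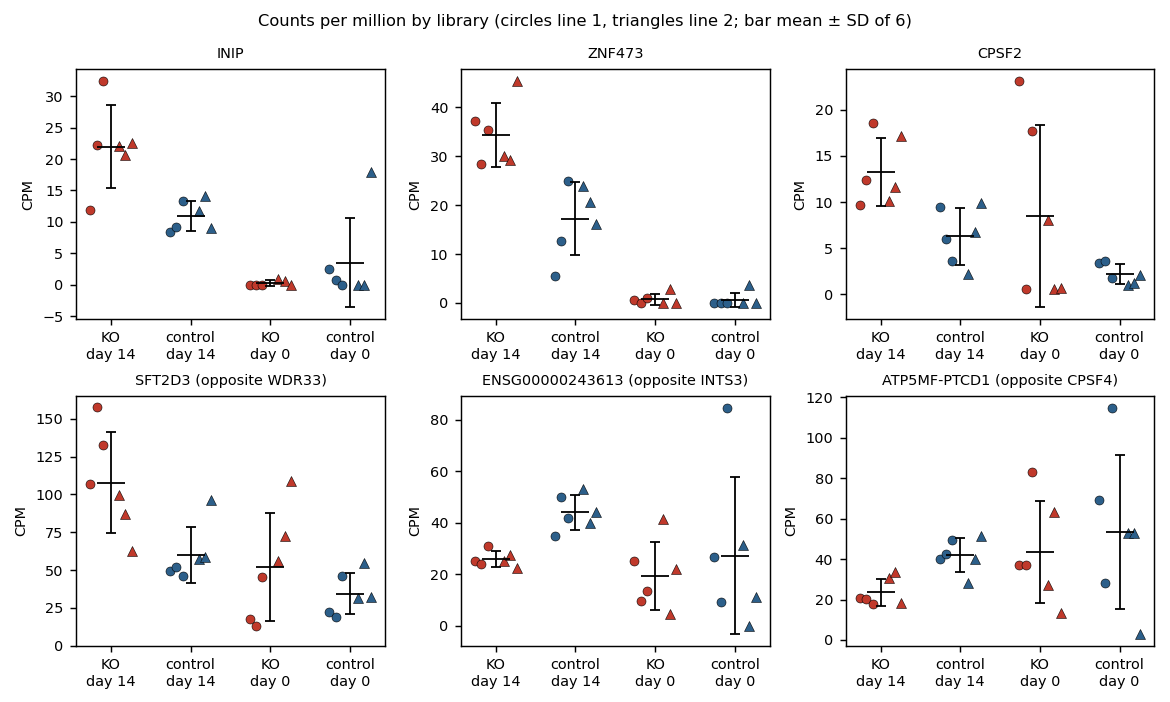
CPM (y axis) of the 3 members (top) and 3 opposite features (bottom) that passed the threshold at day 14, in each library of the 4 groups, with circles for line 1, triangles for line 2, and a bar for the mean ± SD of 6. ZNF473 and ENSG00000243613 show no overlap between day 14 knockouts and controls, and the day 0 groups overlap in all 6 panels.

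Within a library, the share of a pair's counts that falls under the opposite feature does not depend on library size. In the WDR33 and SFT2D3 pair, SFT2D3 held 16.5, 21.1 and 23.2% of counts in day 14 knockouts and 10.3, 11.2 and 16.03% in day 14 controls (lowest, median, highest), without overlap. ENSG00000269091, an antisense RNA that overlaps ZNF473 exons by 245 bp, held 15.9, 39.7 and 53.9% of its pair in knockouts and 54.2, 60.6 and 85.9% in controls, also without overlap. In that pair ZNF473 was higher in knockouts, and ENSG00000269091 had a log2 fold change of -0.42 (SE 0.28, edgeR adjusted p = 0.297). ENSG00000243613 held 24.4, 44.0 and 63.5% of the INTS3 pair in knockouts and 57.6, 65.7 and 79.9% in controls. ATP5MF-PTCD1 held 49.2, 55.2 and 65.2% of the CPSF4 pair in knockouts and 59.2, 74.0 and 86.0% in controls. These 2 shares overlapped between the groups.

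In 3 other pairs the opposite feature held most counts in both genotypes, and the ranges overlapped. CCNE2, which encodes cyclin E2 and overlaps INTS8 by 1629 bp, held 76.2, 85.8 and 92.9% of counts in knockouts and 76.3, 83.5 and 92.4% in controls at day 14. LNX1, a ubiquitin ligase that overlaps FIP1L1 by 1560 bp, held 91.4, 96.8 and 97.8% in knockouts and 94.0, 95.3 and 97.0% in controls. YPEL4 held at least 97.9% of its pair with CLP1 in knockouts and 99.4% in controls, and CLP1 had no more than 48 counts over 6 libraries. Not all pairs were this close: LINC00294 held a median of 8.26% of its pair with CSTF3 in knockouts and 1.04% in controls, VRK3 4.38 and 0.562% of its pair with ZNF473, and PCF11-AS1 35.9 and 46.7% of its pair with PCF11, each with overlap. These 3 were chosen after their values were seen. No test was made of any of these shares.

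**Figure D4:**
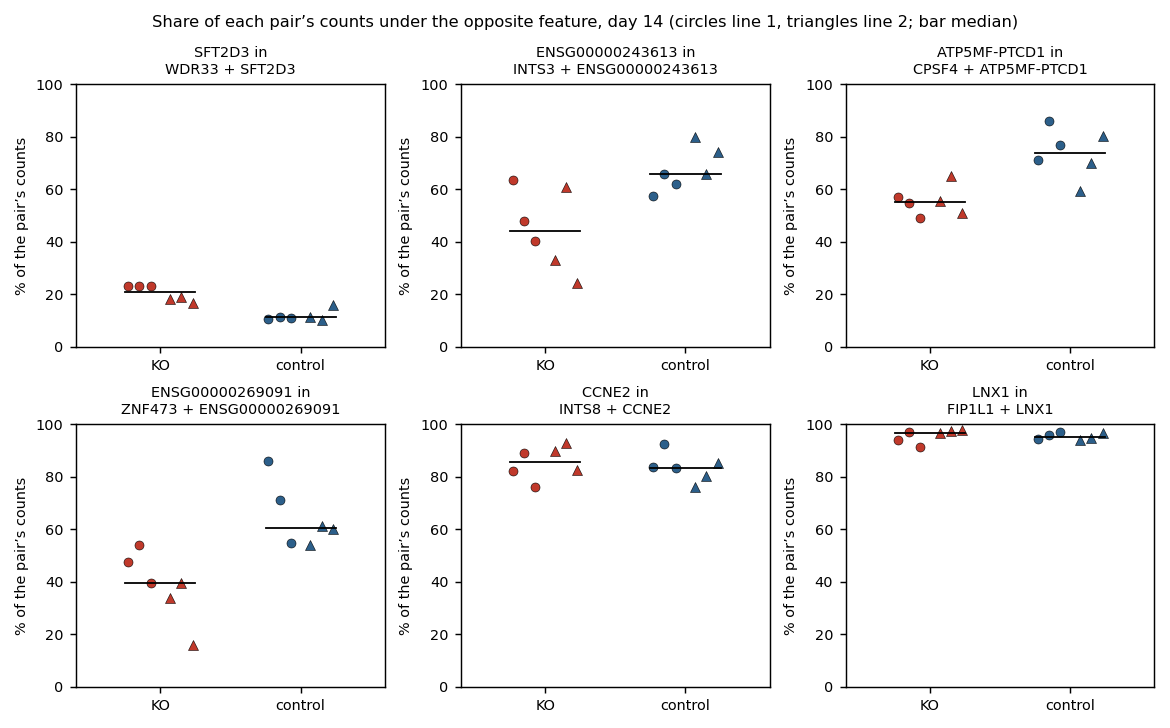
Percent of the counts of 6 member and opposite feature pairs that fall under the opposite feature (y axis, 0 to 100%) in day 14 libraries, knockouts on the left and controls on the right of each panel, with circles for line 1, triangles for line 2 and a bar for the median. The WDR33 and ZNF473 pairs do not overlap between genotypes, and the INTS8 and FIP1L1 pairs overlap throughout.

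The minority-strand percent of a library was estimated from 241 antisense and coding pairs. It is the pooled count under the coding names as a percent of the pooled count under the antisense names. Pairs were kept only where coding counts over all libraries were under 10% of antisense counts. The percent was 2.71 to 5.001% in day 14 knockouts (mean 3.79 ± 0.996, SD, n = 6) and 2.24 to 3.42% in day 14 controls (mean 2.92 ± 0.389). The difference had a 2-sided exact permutation p of 0.0844. With this percent as a covariate, INIP had a log2 fold change of 0.78 (edgeR adjusted p = 0.0783), CPSF2 0.89 (0.167) and ATP5MF-PTCD1 -0.64 (0.0969), each no longer past the threshold. ZNF473 had 0.99 (0.0309), SFT2D3 1.14 (0.000216) and ENSG00000243613 -0.71 (0.0315), each still past it.

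The same comparison at day 0, in stem cells, gave no calls. None of the 7 tested members and none of the 13 tested opposite features passed, against 0.0% of all 4832 features. At an unadjusted p under 0.05, edgeR and DESeq2 both found 0 members and 1 opposite feature, ANKRD42-DT, and 99 and 163 features in all. DESeq2 made 0 calls as well. WDR33 had a log2 fold change of -0.24 (SE 0.27) and FIP1L1 0.06 (SE 0.42). INTS8 had 21.3, 64.3 and 131 CPM in day 0 knockouts and 17.5, 50 and 245 CPM in day 0 controls, overlapping widely (log2 fold change -0.68, SE 0.59). INTS3 had 0.702, 13.2 and 36.0 CPM in day 0 knockouts and 0.572, 6.78 and 55.3 CPM in day 0 controls. SEs at day 0 ran from 0.27 for WDR33 to 0.95 for INTS3 among the 7 tested members.

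Whether the genotype difference itself depended on day was tested as an interaction over all 24 libraries. None of 20 members passed with edgeR, against 1.47% of 10971 features, and 2 had an unadjusted p under 0.05. INIP had an interaction of 4.38 on the log2 scale (SE 1.38, edgeR adjusted p = 0.103), and DESeq2 called it. Its day 0 control values rest on 1 library, line 2 replicate C, at 17.97 CPM, with no other above 2.43 CPM. A difference between days in the effect of BRAT1 loss was thus not shown by edgeR for any member. INTS1, the largest Integrator subunit, was the second, at -3.23 (SE 1.45, edgeR adjusted p = 0.276).

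The lines of a genotype were compared as background for the genotype comparison, 3 libraries against 3 at day 14. None of 24 tested members differed between KO line 2 and KO line 1, against 0.402% of features, with 0 at an unadjusted p under 0.05. None of 22 differed between control line 2 and control line 1, against 0.244% of features, with 2 at an unadjusted p under 0.05. DESeq2 called 0 members in both. KO line 2 over KO line 1 gave log2 values of -0.03 for INIP (SE 0.39), 0.01 for ZNF473 (SE 0.33) and -0.08 for CPSF2 (SE 0.48). SFT2D3 was at -0.70 (SE 0.24, edgeR adjusted p = 0.296).

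More members passed between days than between genotypes at day 14, as did more of all features. Day 14 was set against day 0 in knockouts and in controls separately, from 1 fit of 24 libraries in which the 2 comparisons share no library. In knockouts, 9 of 20 tested members passed, 6 higher and 3 lower at day 14, which is 45.0% against 46.3% of all 10971 features (29.8% higher and 16.5% lower). In controls 6 of 20 passed, 4 higher and 2 lower, 30.0% against 42.8% (28.4% higher and 14.4% lower). With edgeR and TMM scaling, the share of members called was thus not above that of all features in either genotype. This depended on the tool. DESeq2 called 13 of 20 members and 6141 of 10971 features in knockouts. In controls it called 12 of 20 members and 5642 features, and the share of members was the higher one in both genotypes. The members called in both were CPSF6, FIP1L1, INTS8 and ZNF473. No matching overlap over all features is given here, so this overlap is not read as particular to the members. The median log2 fold change was 0.84 in knockouts and 1.09 in controls for members, and 0.65 and 0.60 for all features. With RLE scaling the median of all features was 1.04 in knockouts and 0.83 in controls, so changes are best read against that median.

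INTS8 and FIP1L1 were lower under their own names at day 14 in both genotypes. INTS8 had 13.8, 17.7 and 36.8 CPM at day 14 and 21.3, 64.3 and 131 CPM at day 0 in knockouts, a log2 fold change of -2.14 (SE 0.49, edgeR adjusted p = 0.000688). In controls it was -2.61 (SE 0.50), with 10.4, 23.4 and 28.4 CPM at day 14 and 17.5, 50 and 245 CPM at day 0. The share of the INTS8 pair under CCNE2 had a median of 85.8% at day 14 and 47.4% at day 0 in knockouts, and 83.5% and 57.8% in controls. CCNE2, its opposite feature, was not lower: its median was 125 CPM at day 14 and 49.4 CPM at day 0 in knockouts. In controls the medians were 118 and 51.9 CPM. Its log2 fold change in knockouts was 0.35 (SE 0.35, edgeR adjusted p = 0.44). The fall was thus seen in counts under the INTS8 name only, and whether INTS8 RNA fell cannot be told from these counts. FIP1L1 had 10.2, 13.6 and 31.1 CPM at day 14 and 19.5, 47.3 and 72.8 CPM at day 0 in knockouts (log2 fold change -1.96, SE 0.41). In controls it had 13.9, 18.5 and 31.8 CPM at day 14 and 27.2, 44.6 and 65.0 CPM at day 0 (log2 fold change -1.64, SE 0.40), a call lost without control line 1 (-1.44, edgeR adjusted p = 0.0885). LNX1, its opposite feature, was lower as well, by log2 fold changes of -1.15 in knockouts and -0.85 in controls.

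ZNF473 and CPSF6 were higher under their own names at day 14 in both genotypes. ZNF473 had at most 2.80 CPM in day 0 knockouts and 3.73 CPM in day 0 controls, with 8 and 6 counts over 6 libraries, so its fitted log2 fold changes of 4.94 in knockouts and 4.26 in controls rest on a few day 0 counts. Every day 14 library was above every day 0 library. CPSF6 had 5.47, 10.2 and 25.8 CPM at day 14 and 0, 1.18 and 3.80 CPM at day 0 in knockouts. In controls it had 3.59, 7.37 and 19.7 CPM at day 14 and 0, 1.05 and 2.43 CPM at day 0. The log2 fold changes were 2.34 (SE 0.79) in knockouts and 2.32 (SE 0.80) in controls, and the call was lost in knockouts without KO line 1 (1.69, edgeR adjusted p = 0.216) and in controls without control line 1 (2.65, 0.125), without control line 2 (2.11, 0.177) and without control line 2 replicate B of day 14 (1.99, 0.0548).

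INIP, PCF11, RBBP6, WDR33 and CASP8AP2 passed in knockouts alone, and CPSF7 and INTS4 in controls alone. The interaction did not pass for any of these 7. INIP had 3 counts over the 6 day 0 knockout libraries, and it had a fitted log2 fold change of 5.59 (SE 1.12, edgeR adjusted p = 0.000134), against 1.21 in controls (SE 0.86). PCF11 had 27.6, 50.01 and 66.1 CPM at day 14 and 0, 2.41 and 20.4 CPM at day 0 in knockouts (log2 fold change 2.62, SE 0.73), and its value in controls was 1.32 (SE 0.69). Its call in knockouts was lost without KO line 1 (2.003, edgeR adjusted p = 0.149). RBBP6, a ubiquitin ligase that activates the cleavage machinery, had 2.01 in knockouts (SE 0.67) and 0.87 in controls (SE 0.65). WDR33 had 0.53 (SE 0.21) in knockouts and 0.42 (SE 0.21) in controls, both under the median of all features, and its call in knockouts was lost in 11 of 33 alternative settings. CASP8AP2 was lower in knockouts, with 0.744, 2.01 and 4.01 CPM at day 14 and 0, 6.58 and 22.9 CPM at day 0 (log2 fold change -2.66, SE 0.94). Leaving out KO line 1 (-1.18, edgeR adjusted p = 0.527) or KO line 2 (-3.175, edgeR adjusted p = 0.0675) ended that call, as did leaving out any of 3 single libraries (KO line 1 replicate A or KO line 2 replicate C of day 14, or KO line 1 replicate B of day 0, edgeR adjusted p of 0.052 to 0.0533). CPSF7 had 3.06 in controls (SE 0.81) and 1.503 in knockouts (SE 0.74), and INTS4 2.79 (SE 0.92) and 1.68 (SE 0.87). Without control line 2 neither passed in controls (CPSF7 2.698, edgeR adjusted p = 0.0692, and INTS4 2.27, edgeR adjusted p = 0.211).

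**Figure D5:**
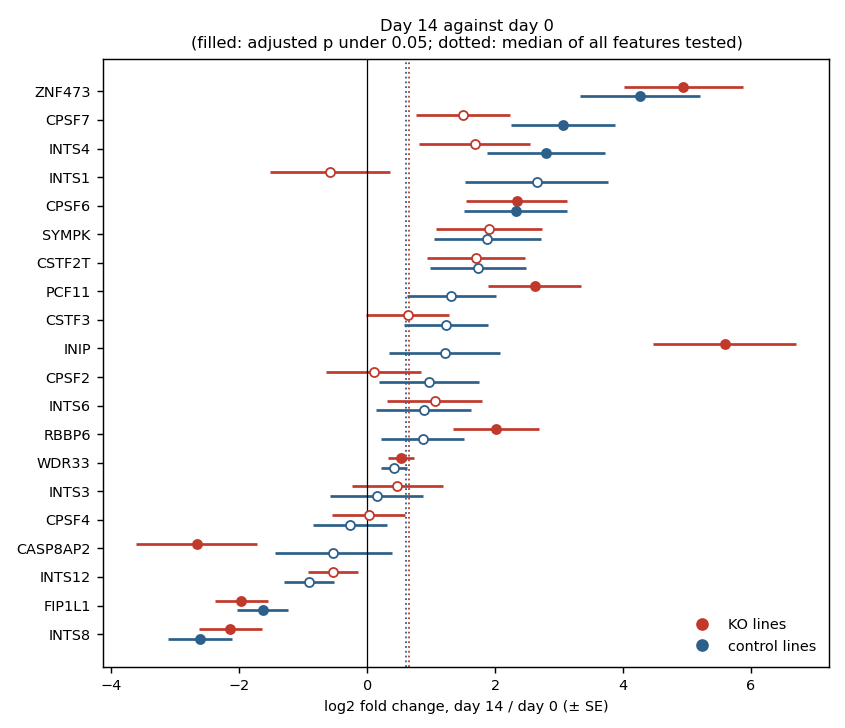
Log2 fold change of day 14 over day 0 (x axis, bars ± SE) for the 20 tested members, with knockout lines in red above control lines in blue, filled where edgeR's adjusted p was under 0.05 and dotted lines at the median of all features. INTS8 and FIP1L1 lie left of 0 in both genotypes, and ZNF473 lies farthest right in controls at 4.26.

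Among the 16 tested opposite features, 7 passed between days in knockouts (3 higher, 4 lower) and 5 in controls (2 higher, 3 lower), 43.8 and 31.2% against 46.3 and 42.8% of all features. YPEL4, opposite CLP1, had 275, 359 and 405 CPM at day 14 and 44.8, 57.6 and 126 CPM at day 0 in knockouts, a log2 fold change of 1.67 (SE 0.30). In controls it had 296, 332 and 382 CPM at day 14 and 15.5, 66.9 and 85.0 CPM at day 0 (log2 fold change 1.88, SE 0.30). AAMDC, opposite INTS4, was higher by 3.94 in knockouts and 3.86 in controls, with no more than 4 counts in a day 0 group. ATM, the DNA damage kinase whose start lies 158 bp from that of NPAT, was higher in knockouts by 3.01 (SE 0.87) and had 0.95 in controls (SE 0.80). TCP11L1, opposite CSTF3, was lower in both, by -0.97 and -1.16. ANKRD42-DT and ATP5MF-PTCD1 were lower in knockouts (-0.88 and -1.41), and INTS6-AS1 in controls (-1.76). DESeq2 called neither ANKRD42-DT nor ATP5MF-PTCD1. The ATP5MF-PTCD1 call was lost in 7 of 33 alternative settings, among them RLE scaling (-0.99, edgeR adjusted p = 0.0882) and without KO line 1 (-0.84, edgeR adjusted p = 0.395). YPEL4, AAMDC, ATM, TCP11L1, LNX1, ANKRD42-DT and INTS6-AS1 are outside the naming rule and were chosen after their values were seen.

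Neighbouring genes of the pathway were counted from fixed lists at day 14, where 21.7% of all features were called. Of 9 tested Integrator partners and pausing factors, 0 were higher and 1 was lower in knockouts: NELFCD, a subunit of the negative elongation factor, with a log2 fold change of -1.65 (SE 0.46, edgeR adjusted p = 0.0102). Of 10 tested factors of poly(A) tailing, termination and export, 2 were higher and 1 lower. These shares are 11.1 and 30.0%. Among those higher, XRN2, the exonuclease that degrades RNA downstream of the cut, had 0.67 (SE 0.22, edgeR adjusted p = 0.0308). TOX4, a subunit of a phosphatase complex with PPP1R10 and WDR82, had -0.48 (SE 0.15, edgeR adjusted p = 0.018). None of 6 factors for snRNA transcription and cap binding passed, with 0 at an unadjusted p under 0.05 and 6 positive values. Their medians were 0.37, 0.21 and 0.17, against 0.07 for all features.

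Between days, the pausing list had 3 higher and 0 lower of 8 tested in knockouts, and 2 higher and 1 lower in controls, 37.5% in each, against 46.3% of all features in knockouts and 42.8% in controls. PPP2R1A, the scaffold subunit of PP2A, was higher at day 14 in both, by 4.44 in knockouts and 3.62 in controls, as was SUPT4H1, a subunit of the elongation factor DSIF, by 5.65 and 2.82. The tailing and termination list had 2 higher and 1 lower of 9 in knockouts, and 4 higher and 1 lower in controls. TOX4 was lower in both, by -1.78 and -1.37. The snRNA transcription list had 2 higher and 1 lower of 5 in each, with NCBP1, the large subunit of the nuclear cap-binding complex, higher by 3.38 in knockouts and 3.53 in controls. SNAPC3, a subunit of the snRNA promoter-binding complex, was lower by -2.55 and -2.56. PPP1CB, a catalytic subunit of protein phosphatase 1, passed for the interaction of genotype and day at -5.01 (SE 1.25, edgeR adjusted p = 0.0356). PPP1CB, PPP2R1A, SUPT4H1 and NCBP1 did not pass the filter on low counts at day 0, so their values here rest on low day 0 levels. All these counts, too, are under the names of the genes and so on the strand opposite to most of their RNA.

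The RNAs that these machines make were summed by name. The 361 features named as U1, U2, U4, U5, U11 and U12 snRNAs or their pseudogenes summed to 55.4, 84.5 and 109 CPM in day 14 knockouts and 102, 114 and 118 CPM in day 14 controls. At day 0 they summed to 20.2, 51.4 and 85.5 CPM in knockouts and 13.7, 51.7 and 75.9 CPM in controls. The pseudogenes RNU4-5P and RNU2-27P held 42.3% and 12.7% of these counts, and RNU4-5P lies opposite exons of XPNPEP1 (40 bp). RNU4-5P was lower in day 14 knockouts by a log2 fold change of -0.97 (SE 0.21, edgeR adjusted p = 0.0016) and RNU2-27P by -1.15 (SE 0.38, edgeR adjusted p = 0.0299). Without both, the sums were 35.7, 44.7 and 72.4 CPM in knockouts and 35.3, 47.3 and 54.3 CPM in controls, which overlap. Most snRNAs and replication-dependent histone mRNAs carry no poly(A) tail, so libraries of poly(A) RNA sample them poorly.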

How the data were processed

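RNA of 24 libraries was measured by Click-Seq, a stranded method, on poly(A) RNA from Trizol extracts, per the labels' protocols. Each deposited table holds unscaled read counts per gene of 1 library, which the authors made with bcl2fastq 2.20.0, STAR 2.7.9a, GRCh38 and featureCounts of Subread 2.0.1, with DESeq2 1.34.0 and R 3.5.1 also named, per the submitters' processing notes. Which annotation release and strand setting were used is not given in the sources used here. Names were matched to GENCODE 29 on GRCh38, which placed 57070 of 61248 features holding 90.18% of counts.

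Groups were compared with edgeR 4.0.16 (quasi-likelihood F test, robust, TMM scaling, filterByExpr) under R 4.3.3, fitted on all features, with Benjamini-Hochberg adjusted p under 0.05 over all features tested. Each SE is the log2 fold change divided by the root of F. The fits were tested on simulated data. Lines are nested in genotype and were no term, so libraries of the same line count as independent and p-values do not measure the spread between lines. CPM uses raw totals, and precision is limited by these totals.

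The members, lists and comparisons were chosen with earlier results of these data known. Named were members and opposite features past the threshold between genotypes or lines or in the interaction, members past it in both day comparisons, and the 3 highest of each role at day 14. The alternatives were no filter, RLE scaling, DESeq2 1.42.0, the replicate letter as a block, the minority-strand percent as a covariate, counts summed per line, all 24 libraries in 1 fit, other overlap minimums, and leaving out lines or libraries. Leaving out the 2 knockout libraries highest in minority-strand percent was added after seeing the data. Libraries of the same line differed beyond sampling noise, by a chi-square per degree of freedom of 4.89 to 71.4. One gene of the tailing and termination list is counted but not reported here.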

Additional observations from a re-analysis of the deposited data

Results flagged for a closer look

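In 15 of 80 groups of 6 libraries examined, 1 library lay apart from the other 5 by more than Dixon's 95% critical value of 0.625. Chance alone flags about 1 in 20 such groups where values are normally distributed, which low counts are not. ZNF473 and NABP1 in day 0 controls, for example, were at 0 in 5 of 6 libraries. That rate is therefore no yardstick here. Of the 15 flagged, 12 were at day 0 and 3 at day 14.

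At day 14, SFT2D3 was highest in control line 2 replicate C, at 96.0 CPM with no other control above 58.3 CPM. INTS8 was lowest in control line 1 replicate B, at 10.4 CPM with no other control under 21.7 CPM. CPSF6 was highest in KO line 1 replicate C, at 25.8 CPM with no other knockout above 12.3 CPM. That library also had the highest minority-strand percent, 5.001%, and the part of this in its CPSF6 value was not tested.

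At day 0, single knockout libraries stood out for NABP1 (line 1 replicate B, 10.3 CPM), INTS4 (line 1 replicate B, 30.4 CPM), PCF11 (line 2 replicate A, 20.4 CPM), CPSF7 (line 2 replicate B, 25.2 CPM) and ZNF473 (line 2 replicate B, 2.80 CPM). Single control libraries stood out for INTS4 (line 1 replicate A, 13.6 CPM), BRAT1 (line 1 replicate A, 2.91 CPM), ENSG00000243613 (line 1 replicate C, 84.6 CPM) and NABP1 (line 2 replicate A, 6.16 CPM). The same held for INTS3 (line 2 replicate B, 55.3 CPM), ZNF473 (line 2 replicate B, 3.73 CPM) and INIP (line 2 replicate C, 17.97 CPM). Several rest on few counts, such as 5 for ZNF473 in the knockout library and 6 in the control library.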

How the results depend on the processing

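The count of members called between genotypes at day 14 (3) fell to 1 with no filter, with the minority-strand percent as a covariate, with the 2 knockout libraries highest in it left out (chosen after seeing the data), without control line 2 and without KO line 2. It fell to 0 with counts summed per line, in a single fit of the 24 libraries, and without control line 1. The 3 opposite features called became 0 in the fit of 24 libraries and 1 with an overlap of at least 300 bp. Over all features, calls numbered 2474, and 241 with all 24 libraries, 1266 without control line 2, 1552 without control line 1 and 1664 summed per line. Between days, the members called in knockouts (9) became 13 with DESeq2, 5 with counts summed per line and 5 without KO line 1. Those in controls (6) became 12 with DESeq2 and 10 with RLE scaling. Over all features, DESeq2 called 6141 between days in knockouts and 5642 in controls, against 5077 and 4699 with edgeR. DESeq2 called 1 member in the interaction, against 0. Opposite features called between days in knockouts (7) became 3 without KO line 1, and those in controls (5) became 1 without control line 1 and 3 without control line 2. The cause of these changes was not tested, beyond the fewer samples in fits that leave some out.

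Leaving out 1 library at a time gave 2 to 4 members called between genotypes at day 14, 0 to 0 at day 0, 8 to 11 between days in knockouts, 5 to 9 between days in controls, and 0 to 0 in the interaction and between lines. For opposite features it gave 3 to 4 between genotypes, 5 to 7 between days in knockouts and 4 to 6 between days in controls.

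Nothing in the labels says what a replicate letter shares. Same-letter libraries of different lines correlated at -0.371 to 0.262 at day 14 and different-letter ones at -0.217 to 0.276. At day 0 deviations of same-letter libraries correlated at 0.0815 to 0.295, 13 of 18 pairs over 0.1, and different-letter ones at -0.21 to 0.0367. This hints that letters tie libraries at day 0. Since not every pair was over 0.1, the letters were not taken as pairs. With the letter as a replicate block, 2 members were called between genotypes at day 14, 0 at day 0, 10 between days in knockouts, 7 in controls, and 0 in the interaction and between lines. Opposite features numbered 3, 7 and 5 under the block.

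Some uncalled values at day 14 changed sign. Without KO line 2, INTS8 was 0.15, FIP1L1 0.12 and INTS12 -0.0036. Summed per line, INTS12 was -0.029. With the covariate, CPSF6 was -0.32, CPSF7 -0.014 and WDR33 0.039. INTS4 was 0.017 without KO line 1. Leaving out 1 library at a time, CPSF6 ranged from -0.0096 (without KO line 1 replicate C) to 0.71.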

Other observations

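Core histone names gave values that belong to no comparison above, and this list was chosen after values were seen. Of 75 features named H2AC, H2BC, H3C or H4C, the names of replication-dependent genes of histones H2A, H2B, H3 and H4 and of some pseudogenes, 39 had a count at day 14 and 24 of these had a higher mean CPM in knockouts than in controls. Their summed level was 11.3, 19.9 and 44.8 CPM (lowest, median, highest) in day 14 knockouts and 1.57, 8.78 and 14.8 CPM in day 14 controls. The sums hold 444 counts in knockouts and 165 in controls. No matching share over all features is given here. Among the names with the most knockout counts, H2BC21 had 74 over the 6 day 14 knockout libraries and 5 over the 6 controls. H2BC6 had 68 and 13, and H2BC1 had 55 and 5. Others went the other way, such as H4C9 with 12 and 19, H2AC9P with 5 and 16, and H3C14 with 0 and 9. The highest library was KO line 1 replicate C, which held 167 of the 444 knockout counts. It also had the highest minority-strand percent, and the part of strand in this was not tested. At day 0 the sums were 12.8, 23.3 and 32.3 CPM in knockouts and 0, 13.1 and 40.1 CPM in controls, with overlap. All names starting with H1, H2AC, H2BC, H3C or H4C, 88 features, summed to 1013, 1119 and 1393 CPM in day 14 knockouts and 1104, 1171 and 1329 CPM in day 14 controls. Of these counts, 91.4% were under H1-10-AS1, the antisense of the linker histone H1-10.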
